A study of Mus musculus with 3 samples.

Results

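The comparison described here is the step from Ptbp1 siRNA alone to Ptbp1 and Ptbp2 siRNAs together in CAD cells, a mouse neuroblastoma line of catecholaminergic type. Its members were all gene clusters of the deposited table that had a length and no read value below 0, which were 27224 of 27389, in 2 of the 3 libraries of the series. The first side was a culture transfected with Ptbp1-specific ON-TARGETplus siRNAs, and the second a culture that received these and Ptbp2-specific ON-TARGETplus siRNAs. The third library, with control ON-TARGETplus siRNAs, is given beside them as a reference level. Each group was 1 library, taken 72 h after transfection. A culture with Ptbp2 siRNA alone was not analysed here, so the added step is known only on top of Ptbp1 siRNA.

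Polypyrimidine tract binding proteins bind pyrimidine-rich stretches of pre-mRNA, most often repress the inclusion of nearby exons, and can also affect the stability and localisation of mRNA. Ptbp1 is made in most non-neuronal cells and in neural progenitors, while its paralogue Ptbp2, also called nPTB, replaces it as neurons form. Both transcripts carry a short alternative exon whose length is no multiple of a codon. When PTB proteins keep it out of the mRNA, the reading frame is broken and the transcript is a target of nonsense-mediated decay, so that Ptbp1 holds down both itself and Ptbp2. This exon was 34 bases long in both genes. It is printed below with the 100 bases before it and the 30 bases after it, read from the mm9 genome on the gene's own strand, because it is the sequence through which these 2 siRNA targets are linked. Capitals mark the exon, which lies at chr10:79324759-79324792 in Ptbp1 (plus strand) and at chr3:119427530-119427563 in Ptbp2 (minus strand).
Ptbp1: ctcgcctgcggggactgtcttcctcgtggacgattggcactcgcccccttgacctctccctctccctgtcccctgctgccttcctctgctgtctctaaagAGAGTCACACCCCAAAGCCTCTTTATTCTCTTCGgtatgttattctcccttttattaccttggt
Ptbp2: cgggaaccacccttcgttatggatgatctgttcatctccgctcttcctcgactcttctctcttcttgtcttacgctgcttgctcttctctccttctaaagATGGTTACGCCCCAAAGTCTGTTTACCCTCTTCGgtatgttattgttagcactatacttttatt
Of the 100 bases before the exon, 71% were pyrimidines in Ptbp1 and 73% in Ptbp2. The deposited values are gene totals, so the inclusion of these exons was not measured here.

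Levels are given as CPM, reads scaled to library size, and differences as log2(CPM + 1) of the library with both siRNAs minus that with Ptbp1 siRNA. The pseudocount of 1 understates the differences of low genes. Folds are plain CPM ratios with an exact 95% interval of the read ratio. With 1 library a side no difference has a replicate check and no p-value is given. The intervals cover counting error only, since reads amplified by PCR carry no molecular identifier here and can be copies of 1 molecule, and they hold no variation between cultures. The clusters held 16899510 reads with Ptbp1 siRNA and 14242557 with both siRNAs, so that 1 CPM stood for 17.2 and 14.4 reads. Of 10 markers of the CAD catecholaminergic type all 10 reached 1 CPM, and their summed level was 3455, 2995 and 3684 CPM with control, Ptbp1 and both siRNAs. Chgb was the largest part of this sum, with 25041, 18999 and 20656 reads. The sum was highest with both siRNAs, whereas Chgb was highest in the control library. For the added step 8 of the 10 lay above 0, while Th (-0.22) and Chga (-0.11) lay below. Markers of other cell types were summed in the same order of libraries. The 10 fibroblast and matrix markers, with 6 tested and Col1a2 at 0 in all 3 libraries, gave 397, 269 and 183 CPM. Most of this sum came from Sparc, with 4364, 2844 and 1511 reads, and Fn1, with 1541, 1524 and 980 reads. The 6 astrocyte markers, with 1 tested and Slc1a3 at 0, gave 2.58, 1.68 and 1.39 CPM. The 7 oligodendrocyte and Schwann cell markers, with 2 tested, gave 36.0, 37.3 and 31.4 CPM. The 7 blood and endothelial markers, with 2 tested and Hbb-b1 at 0, gave 22.5, 17.1 and 12.1 CPM. The 5 muscle markers, with 3 tested, gave 19.7, 20.4 and 18.1 CPM. Each of these sums for other cell types was therefore lower with both siRNAs than with Ptbp1 siRNA, and their part in the results was not tested. In bulk RNA, fewer cells of a type and less RNA per cell cannot be told apart.

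The siRNA targets behaved as follows. Ptbp2 (chr3:119421465-119486177, minus strand) stood at 50.6 CPM in the control library, 177 CPM with Ptbp1 siRNA and 43.9 CPM with both siRNAs. The level with both siRNAs was 4.02-fold lower than with Ptbp1 siRNA alone (95% interval 3.69 to 4.39), a difference of -1.98, which was the largest lower difference of the genes called. Adding the second siRNA thus took Ptbp2 from a raised level to slightly under that of the control library, not to absence. Ptbp1 (chr10:79317351-79327179, plus strand) stood at 464, 86.2 and 105 CPM in the same order. It was 1.22-fold higher with both siRNAs than with Ptbp1 siRNA alone (95% interval 1.13 to 1.31), and far below the control library in both. Other genes cover 16.3% of its exon bases. The third family member, Ptbp3, listed under its older symbol Rod1, stood at 147, 138 and 121 CPM, a difference of -0.18.

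Across the 13302 genes that reached 1 CPM in at least 1 of these 2 libraries, the added siRNA went with few large differences. The median difference was 0.0034, 94.8% of genes lay within 1.5-fold, and the 5th and 95th percentiles were -0.50 and 0.42. Of all genes tested, 50.6% had a difference above 0. A gene was called when it differed by at least 2-fold on the log2(CPM + 1) scale and the interval of its read ratio excluded 1. By that rule 44 genes were lower with both siRNAs (0.331% of those tested) and 12 were higher (0.0902%). With a limit of 1.5-fold in place of 2-fold, 447 were lower (3.36%) and 251 higher (1.89%). Over 4 equal bins of transcript length, each bin held 11 lower calls. Over 4 equal bins of mean CPM, from low to high, there were 22, 9, 8 and 5 lower calls and 7, 5, 0 and 0 higher calls. The limit cut through a continuous range: Pla2g3 at -1.01 and Trmt12 at 1.01 lay just inside, while Stc1 at -0.99 and Cpvl at 0.99 lay just outside.

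**Figure D1:**
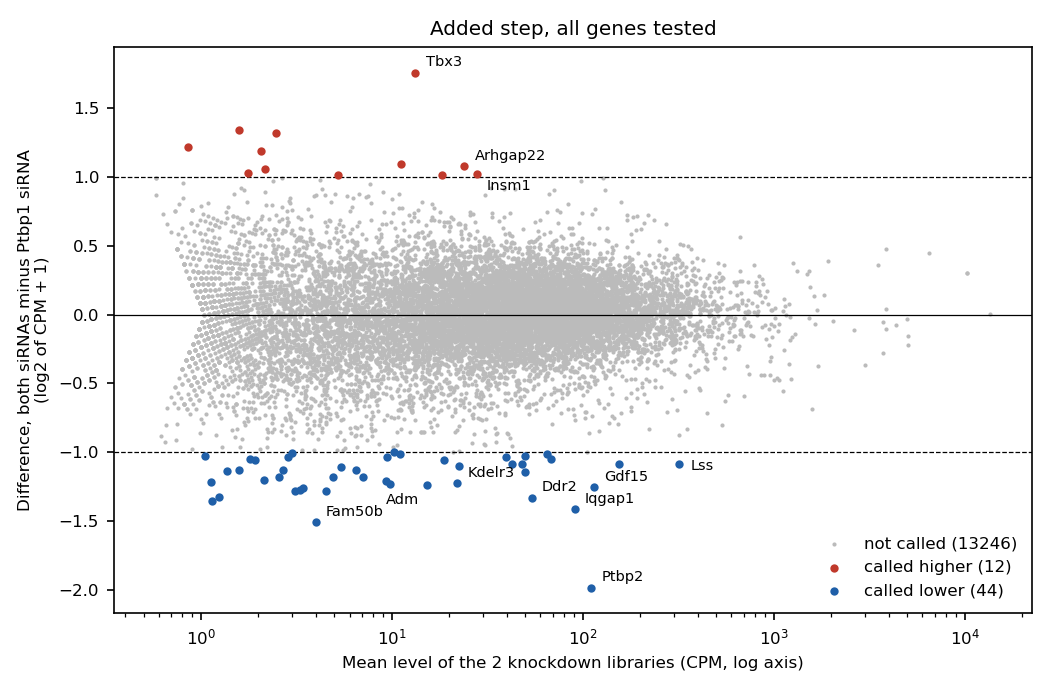
Difference between both siRNAs and Ptbp1 siRNA (log2 of CPM + 1, vertical axis) against the mean level of these 2 libraries (CPM, log axis) for the 13302 genes tested, 1 point a gene, with dashed lines at the 2-fold limit. The 44 genes called lower are blue and the 12 called higher are red; Ptbp2 lies lowest and Tbx3 highest.

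Of the 56 genes called, 9 were called under every one of the 10 other scalings, filters, pseudocounts and row choices tried. They were Ptbp2, Iqgap1, Ddr2, Gdf15, Kdelr3, Ier3, Taf1 and Lss, all lower, and Tbx3, higher. The others lost the call under at least 1 of these, most often with a pseudocount of 5 CPM, under which 47 did.

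Among scaffold and surface proteins, Iqgap1 and Ddr2 stood out. Iqgap1 (chr7:87857672-87948181, minus strand), a scaffold that ties Rac1 and Cdc42 signalling to actin and cell junctions, stood at 290, 132 and 49.1 CPM with control, Ptbp1 and both siRNAs. Its level was 2.69-fold lower with both siRNAs than with Ptbp1 siRNA (95% interval 2.47 to 2.93), and the 3 levels did not overlap within counting error. The paralogues did not move with it: Iqgap2 had a difference of 0.05 with 5288 and 4570 reads, and Iqgap3 one of 0.03 with 1546 and 1323 reads. Ddr2 (chr1:171907778-172040862, minus strand), a receptor tyrosine kinase that binds fibrillar collagen, stood at 69.5, 77.7 and 30.3 CPM. It was 2.56-fold lower (95% interval 2.3 to 2.86) with both siRNAs, while the control and Ptbp1 siRNA libraries lay near each other. Its relative Ddr1 had 2099, 2160 and 1254 reads and a difference of -0.52. Of 14 collagen receptors and integrins tested, Ddr2 was the 1 called, 3 were lower by the 1.5-fold rule and none higher, and the median was -0.37 beside 0.0034 over all genes. The collagen-binding subunit Itga2 had 79, 90 and 37 reads (-0.80), and the laminin-binding subunit Itga7 had 37, 96 and 40 reads (-0.80). The shared beta subunit Itgb1, by contrast, had 13288, 14214 and 12094 reads and a difference of 0.02. The collagen-binding subunits Itga1 and Itga11 also lay nearer 0 than Itga2. They had 3612, 3524 and 2676 reads (-0.14) and 64, 59 and 43 reads (-0.15). Mrc2, an endocytic receptor that takes up collagen, was called lower at 16.6, 13.0 and 5.82 CPM. Epha10, an ephrin receptor whose kinase domain is thought inactive, was also called lower, at 5.10, 5.10 and 1.53 CPM. Gipr, the receptor of the gut hormone GIP, stood at 5.29, 6.84 and 2.22 CPM, 3.08-fold lower (95% interval 2.07 to 4.71).

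**Figure D2:**
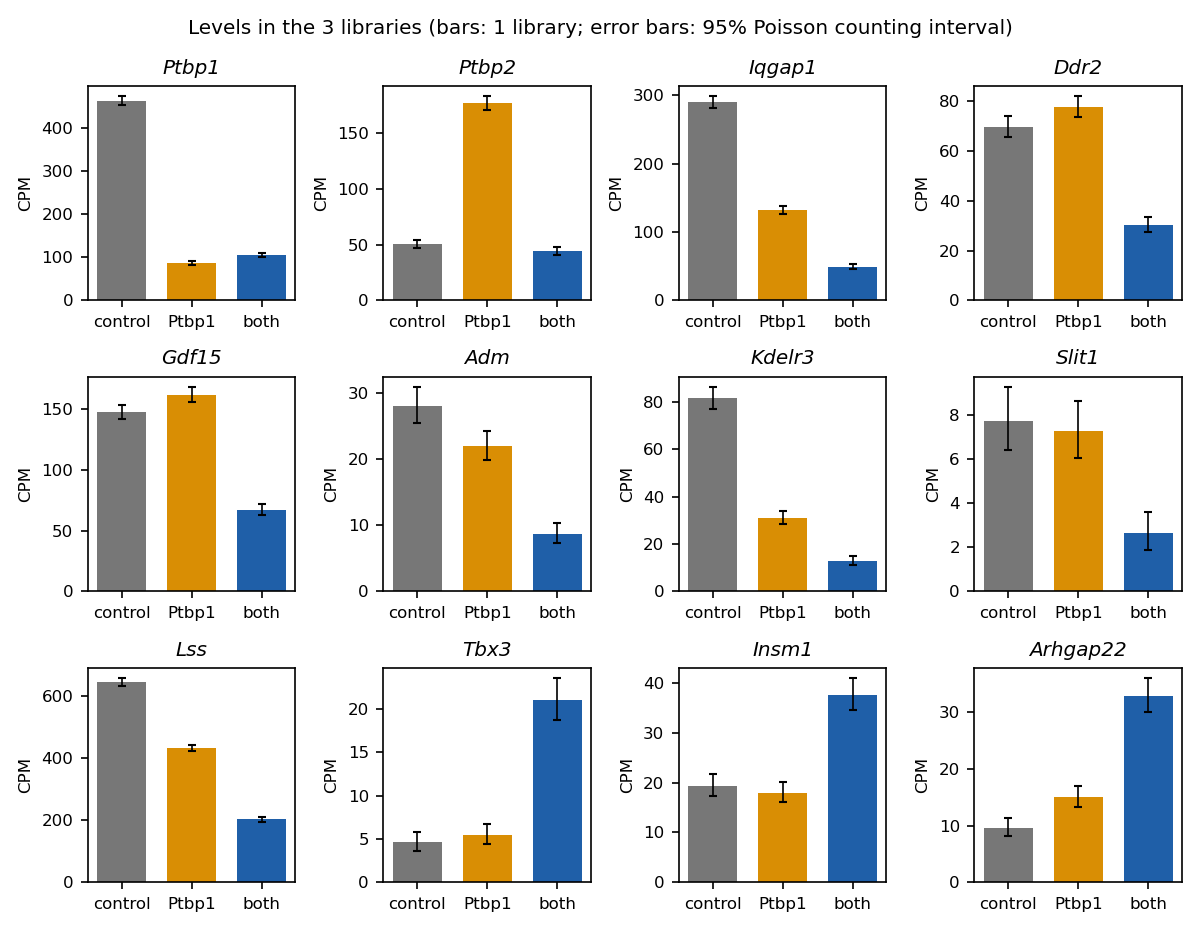
Level (CPM, linear axes from 0) of 12 genes in the libraries with control, Ptbp1 and both siRNAs, each bar 1 library and each error bar a 95% Poisson counting interval. Ptbp2 is high with Ptbp1 siRNA alone, Iqgap1, Kdelr3 and Lss are lower at each step, and Tbx3 and Insm1 stand apart from the other 2 libraries with both siRNAs.

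Several secreted proteins were among the genes called lower. Gdf15 (chr8:73153293-73156356, minus strand), a stress-induced cytokine of the TGF-beta superfamily, stood at 147, 162 and 67.3 CPM and was 2.41-fold lower with both siRNAs (95% interval 2.24 to 2.59). Adm, the precursor of the vasodilator adrenomedullin, had 436, 379 and 126 reads, a level 2.52-fold lower (95% interval 2.05 to 3.1). Slit1, an axon repellent that signals through Robo receptors, stood at 7.74, 7.25 and 2.63 CPM, 2.75-fold lower (95% interval 1.9 to 4.07). In each of these 3 genes the library with both siRNAs was the lowest, under both others. Slit3, a relative of Slit1 that was not called, went the other way with 945, 1221 and 1543 reads, as did the neuropilins Nrp1 (523, 930 and 1330 reads, difference 0.76) and Nrp2 (271, 379 and 472 reads, difference 0.55), receptors for class 3 semaphorins. Over the 26 axon guidance and adhesion genes tested the median was 0.04, with Slit1 the single call. Wnt11, a ligand of non-canonical Wnt signalling, was called lower at 44.8, 30.9 and 13.9 CPM. Other genes cover 10.02% of the exon bases of Wnt11, and the call is lost when overlapping clusters are left out. Dkk1, a secreted Wnt inhibitor, lay just under the limit on the other side with 1598, 1458 and 2444 reads (0.99). C3, the central complement component, stood at 4.97, 4.81 and 1.39 CPM. Cyr61, a matricellular target of YAP and TAZ, had 88, 159 and 53 reads, so that its level was highest with Ptbp1 siRNA. Car6, a secreted carbonic anhydrase, had 13, 51 and 13 reads in the same form. Sfrp4, Scube3, Pros1 and Pla2g3, all secreted as well, completed this set of calls with 7 to 101 reads in the library with both siRNAs.

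Of the genes called lower that act inside the cell, Taf1, the largest subunit of the general transcription factor TFIID, was the most deeply read after Lss. It stood at 229, 212 and 99.1 CPM, 2.14-fold lower with both siRNAs (95% interval 2.01 to 2.27). Kdelr3, a receptor that returns chaperones with a KDEL signal to the endoplasmic reticulum, stood at 81.5, 31.1 and 12.8 CPM, a drop at each step that was 2.44-fold for the added one (95% interval 2.06 to 2.9). The 24 collagen modification and chaperone genes tested held Kdelr3 as their 1 call and had a median of -0.23. Ier3, an immediate early gene linked to survival under stress, stood at 73.9, 68.8 and 30.6 CPM. Mov10, an RNA helicase, stood at 95.4, 57.9 and 26.8 CPM. Eps15, an adaptor of clathrin-mediated endocytosis, stood at 101, 87.1 and 42.6 CPM. These 3 were 2.25-fold, 2.16-fold and 2.04-fold lower. Fam50b had the largest lower difference after Ptbp2, at 5.35, 6.38 and 1.59 CPM, which were 83, 110 and 23 reads, and its closeness to a related gene leaves the read assignment uncertain. The selenium-binding proteins Selenbp1 and Selenbp2 are near-identical copies, so their reads may be split between them. Selenbp1 stood at 74.5, 67.5 and 32.7 CPM and Selenbp2 at 59.5, 53.7 and 25.7 CPM. The calcium pump Atp2a3, the kinase Prkd2, the muscle and fat glucose transporter Slc2a4 and the innate immune adaptor Ticam1 were called lower as well, by 2.53-fold to 2.6-fold. Rora, a nuclear receptor of the circadian and cerebellar programmes, rested on 36 and 3 reads, a ratio of 10.04 with an interval of 3.17 to 50.9.

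Sorted by the Ptbp1 siRNA library, 32 of the 44 lower calls had a level there within 1.5-fold of the control library, 7 were already lower and 5 were higher. Of the 12 higher calls the numbers were 10 within, 1 lower and 1 higher. The Ptbp1 siRNA library enters both differences, so this sorting serves only to order the genes. The same split over all genes tested is not given here, so the counts do not show that the calls differ from other genes. Gdf15, Ier3 and Taf1 belong to the genes near control, Iqgap1, Kdelr3 and Aldoc to those already lower, and Ptbp2, Car6 and Cyr61 to those higher.

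Of the genes called higher, the one with the largest difference and the one with the most reads both encode transcription factors. Tbx3 (chr5:120120679-120134611, plus strand), a T-box repressor known from limb, heart and stem cell biology, stood at 4.65, 5.51 and 21.0 CPM. It was 3.81-fold higher with both siRNAs than with Ptbp1 siRNA (95% interval 3.02 to 4.85), with the other 2 libraries near each other. Insm1 (chr2:146047848-146050755, plus strand), a zinc-finger factor of neuroendocrine and neuronal progenitors, stood at 19.4, 18.0 and 37.6 CPM, 2.09-fold higher (95% interval 1.81 to 2.41). These were the 2 calls among the 27 neuronal transcription factors tested, of which 7 were higher and 1 lower by the 1.5-fold rule, 23 had a difference above 0, and the median was 0.24. Tbx2, the close relative of Tbx3, had 500, 804 and 1248 reads and a difference of 0.88. The zinc-finger factors Myt1 and St18 had 747, 843 and 1335 reads (0.91) and 444, 371 and 580 reads (0.87). Phox2a, a determinant of noradrenergic identity, had 1522, 1982 and 2940 reads (0.82), with 26.1% of its exon bases covered by other genes. All 4 were higher by the 1.5-fold rule without reaching the 2-fold limit. Hand1, at 24, 14 and 35 reads, was the least read of the 7. The 1 factor lower by that rule was Rest, the repressor of neuronal genes outside neurons, with 408, 444 and 237 reads (-0.62). Several factors of the sympathetic programme lay near 0, among them Hand2 at 0.16, Gata2 at 0.13 and Isl1 at 0.06.

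The other higher calls follow. Arhgap22, a GTPase-activating protein for Rac, stood at 9.61, 15.1 and 32.9 CPM, 2.18-fold higher (95% interval 1.87 to 2.55), but other genes cover 36.9% of its exon bases. The cluster named Epo, after erythropoietin, had 184, 116 and 223 reads and also carries the alias of Gnb2, so its reads cannot be given to either gene. Trmt12, a tRNA-modifying enzyme, had 33, 54 and 106 reads, Egfem1 23, 18 and 47, and Pcnxl2 4, 15 and 47. Of the 12, 5 have no established symbol, and the best read of these, 2810030E01Rik, had 125, 203 and 358 reads (1.02). Myc, the growth-promoting transcription factor, narrowly missed the call at 57.6, 65.7 and 129 CPM, 1.97-fold higher (95% interval 1.83 to 2.12).

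Genes of ribosome biogenesis lay above 0 almost throughout. Of 24 tested, 23 had a higher level with both siRNAs, with a median of 0.33, but none was called and 1 passed the 1.5-fold rule. That gene was Nolc1, a nucleolar chaperone of small nucleolar ribonucleoproteins, with 2314, 2792 and 3717 reads (0.67). Nop58, a core protein of box C/D particles, had 1663, 2470 and 3105 reads (0.58). Polr1b, the second-largest subunit of RNA polymerase I, had 931, 1385 and 1713 reads (0.56). Polr1c lay below 0 at -0.11. From control to Ptbp1 siRNA the median of the ribosome biogenesis genes was 0.32. Over the 12 genes of the Myc network tested, the median was -0.18: Myc was the 1 gene higher by the 1.5-fold rule, and Mxd4, an antagonist of Myc, the 1 lower, with 706, 294 and 157 reads. The 29 cytosolic ribosomal protein genes tested had a median of -0.02, and many of them have near-identical copies elsewhere.

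Enzymes of glucose use lay below 0. Of 22 genes of glycolysis and glucose uptake tested, 20 had a lower level with both siRNAs, 8 were lower by the 1.5-fold rule, none higher, and the median was -0.39. Aldoc (chr11:78136683-78140263, plus strand), the aldolase isoform of brain, was the 1 call, at 174, 91.8 and 43.8 CPM, 2.09-fold lower (95% interval 1.91 to 2.3) for the added step. Slc16a3, the lactate exporter MCT4, had 9421, 7144 and 3259 reads (-0.87), with 15.6% of its exon bases covered by other genes. Pfkl, a subunit of phosphofructokinase, had 10389, 7763 and 3648 reads (-0.83). Slc2a3, the neuronal glucose transporter GLUT3, had 16143, 11797 and 5654 reads (-0.80). In these 4 genes the library with both siRNAs was the lowest and the control library the highest. Pgk1, phosphoglycerate kinase, differed in that its control and Ptbp1 siRNA reads lay close, at 1878 and 1976, against 966 with both siRNAs (-0.77). Ldha, lactate dehydrogenase A, did so as well, with 23309, 23234 and 15153 reads (-0.36). The lactate carrier Slc16a1 at 0.01 and the regulatory enzyme Pfkfb3 at 0.10 were the 2 genes that did not lie below 0.

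Genes induced under low oxygen, outside glycolysis, had the lowest median of the lists with at least 10 genes tested, -0.56 over 20 genes. Of these, 2 were called lower, 9 were lower by the 1.5-fold rule, none was higher, and 19 lay below 0. The calls were Adm, given above, and Ndrg1, a differentiation- and stress-linked protein of Schwann and epithelial cells, with 41, 70 and 19 reads (-1.13). Car9, the membrane carbonic anhydrase widely used as a mark of hypoxia, had 144, 100 and 40 reads (-0.85). Egln3, a prolyl hydroxylase of the HIF system, had 2763, 2240 and 1141 reads (-0.71), and its relative Egln1 2667, 2604 and 1602 (-0.44). Bnip3, a mitophagy receptor, had 1004, 949 and 508 reads (-0.63), and Vegfa, the angiogenic growth factor, 4837, 4321 and 2419 (-0.58). The mRNA of Hif1a itself had 3307, 3170 and 2630 reads, a difference of -0.01.

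The promoters of the lists were searched on both strands for ACGTG, a form of the core of 5 letters that the factor HIF binds. Other forms of the core were not searched for, so the core means ACGTG below. RefSeq windows of the GRCm38.p6 build, from 250 bases before to 50 after each gene's start, were found for 21 of 22 glycolysis genes and 18 of 22 hypoxia genes. The core was present in 14 of the 21 (66.7%) and 13 of the 18 (72.2%), against 21.8% of 27025 genes in the table. In the cholesterol list it was present in 4 of 17 (23.5%). The E-box CACGTG, which contains the core, was present in 4, 3 and 4 genes of these lists in the same order, and in 8.09% of all. Genes of these lists were picked for known roles, many of them as HIF targets, so the shares describe the lists and a match is not a site in use. Aldoc, the gene called, and Slc16a3, the next lowest, are printed to show where the core lies, with the core or its reverse complement in capitals. Their windows are chr11:78322823-78323122 and chr11:120948817-120949116 on the GRCm38.p6 build, both on the plus strand.
Aldoc: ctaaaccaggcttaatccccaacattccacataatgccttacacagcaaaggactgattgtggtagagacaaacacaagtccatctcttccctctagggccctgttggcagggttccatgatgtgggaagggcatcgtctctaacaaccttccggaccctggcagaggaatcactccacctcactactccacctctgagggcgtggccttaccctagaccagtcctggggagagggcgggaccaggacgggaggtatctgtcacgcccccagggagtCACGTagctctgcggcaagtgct
Slc16a3: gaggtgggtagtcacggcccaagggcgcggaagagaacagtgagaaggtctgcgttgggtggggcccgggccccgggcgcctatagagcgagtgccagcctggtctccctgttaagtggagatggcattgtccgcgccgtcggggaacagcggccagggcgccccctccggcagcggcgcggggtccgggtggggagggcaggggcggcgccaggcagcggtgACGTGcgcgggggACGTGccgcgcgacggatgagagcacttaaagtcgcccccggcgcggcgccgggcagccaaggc
The Aldoc window printed holds 1 copy and the Slc16a3 window 2. The table has a second Aldoc start, with the window chr11:78323948-78324247, which holds 0 copies, and a gene with several starts was counted when any of its windows held the core. Presence of the core was not tested against the size of the difference. Among the glycolysis genes lower by the 1.5-fold rule that had a window, Aldoc, Slc16a3, Pgk1, Slc2a1 and Gapdh have the core. Pfkl (-0.83) and Eno2 (-0.71) do not. Slc16a1 (0.01) and Pfkfb3 (0.10), which did not lie below 0, have the core and also hold the E-box. The window of Adm holds no ACGTG, and a window without these letters says nothing about the factor.

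Cholesterol synthesis was the third metabolic list below 0. Of 23 genes tested, 22 lay below 0, 6 were lower by the 1.5-fold rule, none was higher, and the median was -0.40. Lss (chr10:75994373-76016680, plus strand), which closes squalene epoxide into lanosterol, was the 1 call. It stood at 644, 432 and 203 CPM, 2.13-fold lower with both siRNAs than with Ptbp1 siRNA (95% interval 2.04 to 2.22). Stard4, a sterol carrier, had 2585, 1932 and 969 reads (-0.73), and Insig1, the sterol-regulated retention protein of SREBP, 10010, 6682 and 3452 (-0.69). Mvd, which makes isopentenyl diphosphate from mevalonate diphosphate, had 4576, 3793 and 1984 reads (-0.67). In these 4 genes the levels were lower at each step. Srebf2, which encodes the transcription factor of the pathway, had 11988, 10709 and 6837 reads (-0.39). Of 15 fatty acid synthesis genes tested, 2 were lower by the 1.5-fold rule and the median was -0.34. They were Acss2, which makes acetyl-CoA from acetate, with 3584, 2396 and 1095 reads (-0.86), and the desaturase Scd1 with 19877, 14535 and 8060 (-0.59). From control to Ptbp1 siRNA, the medians of the same tested genes were -0.45 for cholesterol synthesis and -0.34 for fatty acid synthesis. For that step they were -0.36 for glycolysis and -0.34 for the hypoxia list. These lists thus already lay below control with Ptbp1 siRNA alone.

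**Figure D3:**
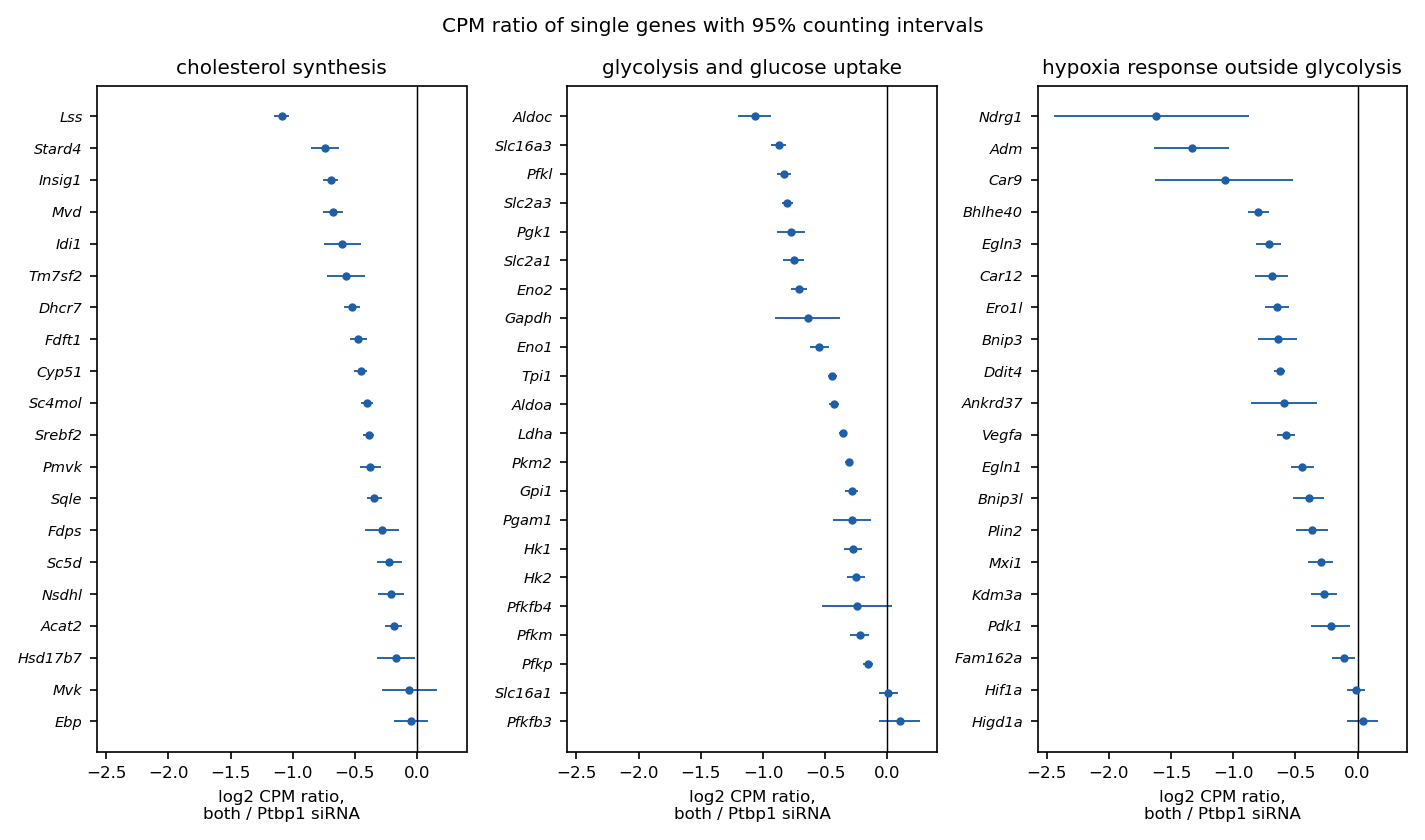
CPM ratio of both siRNAs to Ptbp1 siRNA (log2, horizontal axis) for tested genes of the cholesterol (20 of 23 drawn), glycolysis and hypoxia lists, with points as ratios and bars as 95% counting intervals. Most points lie left of 0, with Lss, Aldoc and Ndrg1 the lowest of their lists.

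No extracellular matrix or antigen presentation gene of the lists reached the 2-fold limit. Of 18 extracellular matrix genes tested, 3 were lower by the 1.5-fold rule and none higher, with a median of -0.36. Nid1, a basement membrane linker, had 1811, 1478 and 778 reads (-0.66), and Sparc, a collagen-binding matricellular protein, 4364, 2844 and 1511 (-0.65). Of 18 interferon response and antigen presentation genes tested, 6 were lower and 1 higher by that rule, with a median of -0.30 and 4 members above 0. H2-K1, a classical class I molecule, had 4265, 3386 and 1720 reads (-0.71), the peptide transporter Tap1 315, 240 and 119 (-0.69), and tapasin, Tapbp, 2877, 1785 and 925 (-0.68). H2-DMa, which loads class II molecules, was the 1 higher, with 35, 93 and 147 reads (0.81). Class I genes have near-identical relatives, which leaves the read assignment of H2-K1 uncertain. The summed fibroblast markers given above, several of them matrix genes, were lower with both siRNAs than with Ptbp1 siRNA. Most of that sum came from Sparc and Fn1, which are also members of the matrix list. The sum is therefore no separate measure of fibroblasts, and its part in the matrix result was not tested. Of 25 genes of filamins, calponins and actin crosslinkers tested, 5 were lower and 1 higher by the 1.5-fold rule, with a median of -0.16. Lima1, an actin crosslinker also called EPLIN, had 1667, 794 and 343 reads (-0.92).

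The presynaptic genes followed by the study split for this step. Vamp2, a SNARE protein of synaptic vesicles, had 1296, 2723 and 3510 reads (0.62, higher by the 1.5-fold rule), the kinesin Kif5a 795, 1802 and 2055 (0.44), and the vesicle protein Sv2a 430, 861 and 617 (-0.22). Of 4 alpha-arrestins tested, 2 were lower by the 1.5-fold rule and the median was -0.54. They were Txnip, a regulator of glucose uptake, with 1974, 846 and 453 reads (-0.63) and 20.0% of its exon bases covered by other genes, and Arrdc2 with 684, 613 and 321 reads (-0.65). Of 17 cell cycle inhibitors and p53 targets tested, 3 were lower by that rule and the median was -0.20. Cdkn1a, the inhibitor p21, had 1193, 1655 and 838 reads (-0.71), so that its level was highest with Ptbp1 siRNA, while Btg2 had 489, 310 and 162 reads (-0.63). Over 29 synaptic vesicle and exocytosis genes tested, none was higher or lower by the 1.5-fold rule and the median was 0.06. The 38 DNA replication genes had a median of 0.04 and the 27 genes of mitosis and cytokinesis one of -0.11, with Ect2, a guanine nucleotide exchange factor of cytokinesis, just outside the limit at 1924, 2433 and 1011 reads. Over the 24 hnRNP genes tested the median was 0.11, and Hnrnpd and Hnrnpa0 were higher by the 1.5-fold rule at 0.71 and 0.74. The 24 genes of SR proteins and the spliceosome had a median of 0.11 and the 15 genes with known PTB-controlled exons one of -0.03, with none past the 1.5-fold rule in either. The 28 nuclear genes of oxidative phosphorylation had a median of 0.07.

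**Figure D4:**
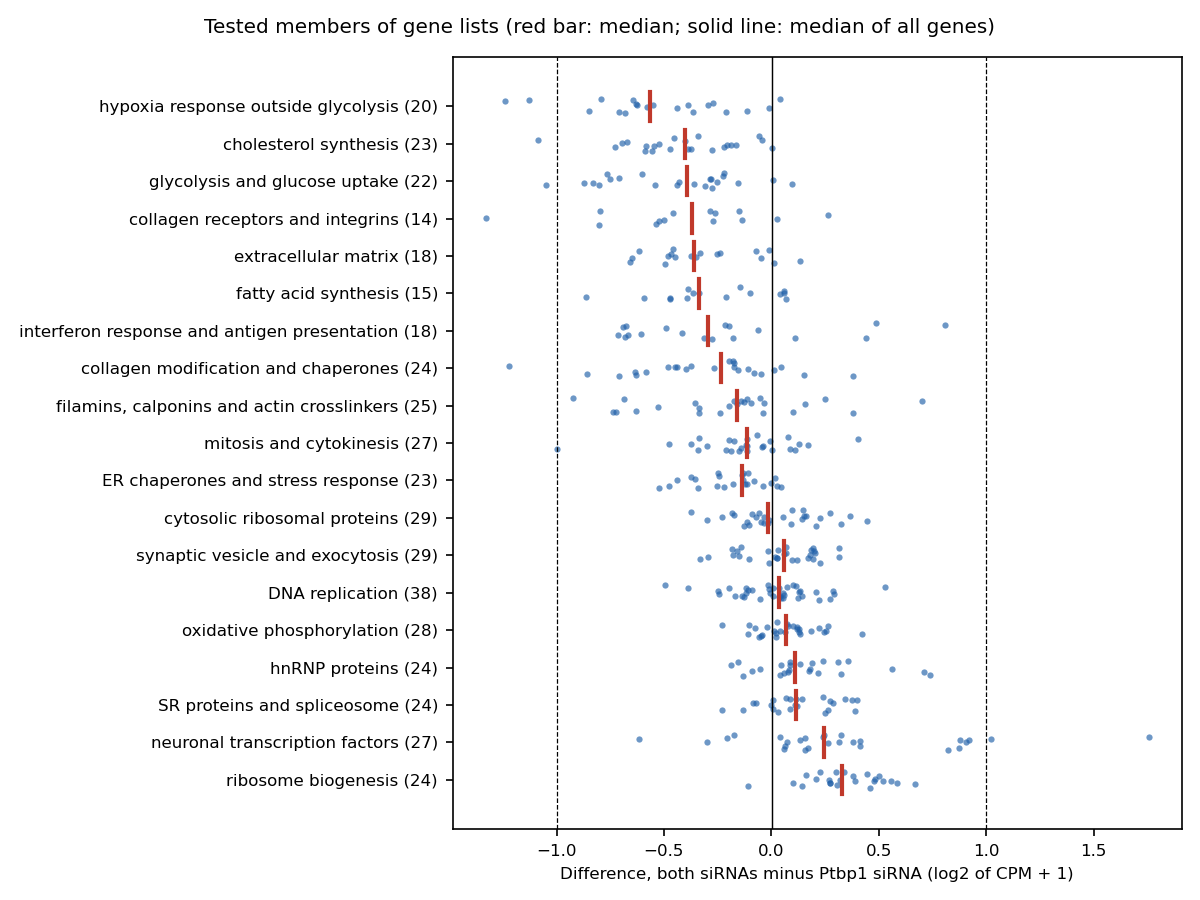
Difference between both siRNAs and Ptbp1 siRNA (log2 of CPM + 1, horizontal axis) for each tested member of 19 gene lists, with the number tested in brackets, 1 point a gene, red bars as medians and dashed lines at the 2-fold limit. The hypoxia, cholesterol and glycolysis lists lie farthest left, at medians of -0.56, -0.40 and -0.39, and ribosome biogenesis farthest right at 0.33.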

How the data were processed

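Poly(A)+ RNA of CAD cells was sequenced as 36-base paired reads on a Genome Analyzer IIx, per the labels' protocols, from 1 library a group, grouped by the transfection label. Such a library does not mark strand. How reads were aligned, counted and assigned to genes is not given in the sources used here. Coordinates are on mm9, per the submitters' processing notes.

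The deposited table gives a whole-number read value, listed here as a score, and an RPKM value per cluster and library. The read values are net numbers, since 38 clusters hold a value below 0 (lowest -65), and no header or label explains what the authors subtracted. Those 38 and 127 clusters with no length were left out, and the others were treated as counts, although the plan had assumed plain counts, which makes the intervals approximate. Clusters were named from the aliases of the deposited table and GENCODE vM1, an annotation of that build. Of clusters with 1 symbol the highest was kept, which left 26847 rows. Since the assignment of reads is not given, a read may have entered more than 1 cluster.

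Scaling used trimmed M values (TMM written in numpy 2.4.6, trimming 30% by M and 5% by A), with factors of 0.968, 1.02 and 1.01 for control, Ptbp1 and both siRNAs. CPM and log2(CPM + 1) were computed from the deposited reads. A gene was tested at 1 CPM in the higher library of the pair. Intervals are exact conditional binomial (Clopper-Pearson, scipy 1.17.1). A count limit of 3 reads corresponds to 0.194, 0.174 and 0.208 CPM. The calculation was tested on simulated data.

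Named genes were the PTB family, Iqgap1, Tbx3 and Ddr2, in each direction the 15 called genes with the largest differences, provided that they had an established symbol and 50 or more reads over both libraries, up to 4 members a list, and up to 6 genes per direction and pattern over the libraries. Other called genes, further list members and Dkk1 and Ect2 were named after their values were seen. The members and the 45 gene lists were chosen with earlier results of these data known. Promoters of the marker genes were not used here, since no data bear on them. Alternatives were pseudocounts of 0.1 and 5 CPM, no filter or 5 CPM, median-of-ratios, library-total and quantile scaling, the deposited RPKM, summed rows per symbol, leaving out overlapping clusters, limits of 1.5-fold and 3-fold, and a binomial test of the reads. Some genes of the cholesterol list are not reported here by name and enter its counts and median only.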

Additional observations from a re-analysis of the deposited data

How the results depend on the processing

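The count of genes called depended on the pseudocount and the limit. Against 12 higher and 44 lower, a pseudocount of 0.1 CPM gave 90 and 163, one of 5 CPM gave 1 and 8, the deposited RPKM gave 7 and 19, limits of 1.5-fold and 3-fold gave 251 and 447 and then 1 and 1, and a filter at 5 CPM gave 6 higher. A binomial test of each gene's reads, adjusted over all genes at 0.05, called 2621 higher and 2392 lower, which compares the 2 libraries and not the conditions. The share of calls that were higher was 21.4% as reported, 35.6% with a pseudocount of 0.1 CPM, 11.1% with 5 CPM, 36.0% at the 1.5-fold limit, 50% at the 3-fold limit and 52.3% in the binomial test. The other scalings moved the median of all genes by less than 0.1. The median of the glycolysis list was -0.34 under quantile scaling. Signs changed for 3 genes that lay at 0: Arrdc1 was -0.0036 with library totals and -0.00072 with RPKM, Slc1a2 was 0.0065 with quantile scaling, and mt-Co1 was -0.0062 with library totals and -0.0032 with RPKM. No other gene in this check changed sign under the alternatives tried. The check did not cover every list member named above. Slc16a1, at 0.01, was not in it, and a value so near 0 can change sign with the scaling. Of the 56 calls, 47 were lost with a pseudocount of 5 CPM, 35 with the RPKM, 20 with a filter at 5 CPM and 6 with quantile scaling. No paired analysis was possible because each group had 1 library, and for the same reason no library could be left out. At this depth, differences of genes with few reads have intervals that span several fold.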

Other observations

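The mitochondrial genome, which sat outside the lists above, was read more with both siRNAs. Mitochondrial genes held 3.67%, 3.91% and 4.62% of the cluster reads with control, Ptbp1 and both siRNAs. Of 8 mitochondrial rows, 7 had a difference above 0.25 between both siRNAs and Ptbp1 siRNA, up to 0.48 for the large ribosomal RNA mt-Rnr2, while mt-Co1, a subunit of cytochrome c oxidase, lay at 0.00. Nuclear copies of mitochondrial segments share such reads.

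Other genes not described above differed in this step without being called, and were picked after their values were seen. The first 5 stand in no list. Lrrn3, a leucine-rich repeat membrane protein of neurons, had 1323, 1563 and 2458 reads with control, Ptbp1 and both siRNAs (difference 0.90), and Nsg2, a vesicle protein of neurons, 1619, 1475 and 2115 (0.77). Sfpq, a nuclear RNA-binding partner of PTB proteins, had 3194, 3637 and 4813 reads (0.66). On the lower side, Lpin1, a phosphatidate phosphatase and coregulator, had 6401, 4887 and 2288 reads (-0.83), and Nfkbia, the inhibitor of NF-kappaB, 2436, 2222 and 1101 (-0.75). The next 4 are members of lists. The imprinted RNA Meg3 had 18, 98 and 141 reads (0.69), and Tfrc, the transferrin receptor, 1003, 1648 and 2143 (0.63). The neuropeptide precursor Vgf had 44608, 33763 and 17591 reads (-0.68), whereas Chgb, a granin of the same secretory granules and 1 of the 10 CAD markers summed above, had 25041, 18999 and 20656 (0.38).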
